A study of Bos taurus with 6 samples.

Results

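Adherens junction, tight junction and cell polarity genes were followed in bovine late morulae after knockdown of 2 components of NOTCH signalling. The set consisted of 36 genes chosen by name for these roles. Of these, 35 were matched to a row of the abundance table by symbol, and all 35 had a mean of at least 10 scaled counts over the 6 libraries. They were 35 of the 12070 genes that passed this minimum among 15314 named genes. PARD6A, at a mean of 21.8, lay nearest the minimum, and no matched gene fell below it. PALS1 was not matched by symbol. RefSeq lists MPP5 as its synonym, and that row is described with the Crumbs complex but is outside all counts.

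Polyadenylated RNA was sequenced from embryos collected at day 6 after in vitro fertilization. The embryos had received small interfering RNA against NOTCH1, small interfering RNA against RBPJ, or a nonspecific small interfering RNA that served as the control. NOTCH1 is a receptor of the NOTCH pathway, and RBPJ is the DNA-binding protein through which cleaved NOTCH receptors act on transcription. Each of the 3 groups had 2 libraries of 15 pooled embryos each, so a value is an average over whole embryos and over cells of different position. Every embryo in the comparison, control embryos included, was injected. Fewer cells of a type and less RNA per cell cannot be told apart in such pools. No label ties the 2 libraries of a group to separate oocyte collections. The p-values therefore measure only how these libraries spread, which may be technical.

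Compaction of the mammalian morula depends on E-cadherin, encoded by CDH1, which holds neighbouring blastomeres together through catenins and the actin cytoskeleton. Outer cells then acquire an apical domain that carries the PAR complex and ezrin, while Scribble group proteins mark the basal and lateral membrane. Tight junctions form between outer cells, seal the embryo and allow the blastocoel to fill. The genes take part in forming the epithelium that becomes the trophectoderm, but pooled whole embryos do not show which cells held their transcripts. Protein placement, which RNA does not measure, is a central part of the process.

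Values are given as scaled counts, which, as judged from the numbers themselves, are read counts that the authors divided by a factor per library and not by transcript length. They are compared between groups for one gene at a time. Totals ranged from 10365695 to 10815554 per library, and an approximate 9730000 to 13550000 reads per library were inferred from the spacing of low values. RBPJ fell in its own knockdown, with 121 and 94.5 in RBPJ knockdown libraries, against 447 and 391 in control libraries (log2 fold change -1.96 ± 0.18 SE, limma adjusted p = 0.00143). NOTCH1 had 48.0 and 49.5 in NOTCH1 knockdown libraries, against 69.6 and 139.8 in control libraries, and this difference missed the threshold (log2 fold change -1.003, limma adjusted p = 0.634). Both NOTCH1 knockdown libraries lay below both controls for NOTCH1, and so did replicate 1 of the RBPJ knockdown, at 50.0. Of 10 lineage markers of this stage 9 were analysed, among them POU5F1 at 10911 to 12942 and GATA6 at 7103 to 10556 over the libraries. Cumulus, granulosa and fibroblast markers summed to 697 to 843, with 7 of 14 at a mean of at least 10 and none of those analysed at 0 in every library. Of 8 blood and immune markers 5 reached that mean, and PTPRC, which defines leukocytes, was at most 11.3 in any library. The others included HBA, an alpha globin gene, at 976 to 1379.6, and CSF1R, a macrophage receptor also found in trophoblast, at 843 to 1829.

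In the NOTCH1 knockdown most junction and polarity transcripts stood slightly above the control, and no single one passed the test. Of the 35 genes, 31 were higher by sign and 4 lower, and the median log2 fold change, taken on log2(value + 1), was 0.14. Over all 12070 genes 51.1% were higher by sign, 48.9% lower, and the median was 0.0059. The largest differences by p were higher NECTIN2, PRKCZ, VCL, CLDN3 and CLDN4 and lower CXADR. In the RBPJ knockdown 20 of the 35 were higher and 15 lower, with a median of 0.034, against 49.7% higher, 50.3% lower and a median of -0.0018 over all genes. There NECTIN2 and VCL were again above the control, and MARK2 and CGN were below it. Both comparisons use the same 2 control libraries.

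The test across all genes was limma with Benjamini-Hochberg adjustment over 12070 genes at a threshold of 0.05. It called 0 of the 35 in the NOTCH1 knockdown (background 0.0% of all genes), 0 in the RBPJ knockdown (background 0.00829%) and 0 between the knockdowns (background 0.00829%). At an unadjusted p below 0.05 limma gave 7 of 35 in the NOTCH1 knockdown, where 7.29% of all genes had one. Of the 7, 6 were higher and 1 lower, where 4.57% of all genes were higher and 2.73% lower. In the RBPJ knockdown it gave 3, where 4.34% of all genes had one. Of the 3, 2 were higher and 1 lower, where 2.83% of all genes were higher and 1.52% lower. The groups separated, with both NOTCH1 knockdown libraries above both controls, for 14 members and with both below for 1, against 18.6% and 17.2% of all genes. Both RBPJ knockdown libraries lay above both controls for 5 members and below both for 3, against 15.3% and 16.8% of all genes. All 4 knockdown libraries lay above both controls for 3 members, NECTIN2, VCL and CLDN4, as they did for 7.98% of all genes. They lay below both controls for 0 members and 7.93% of all genes. Standard errors of the members' log2 fold changes ran from 0.099 to 0.48.

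**Figure D1:**
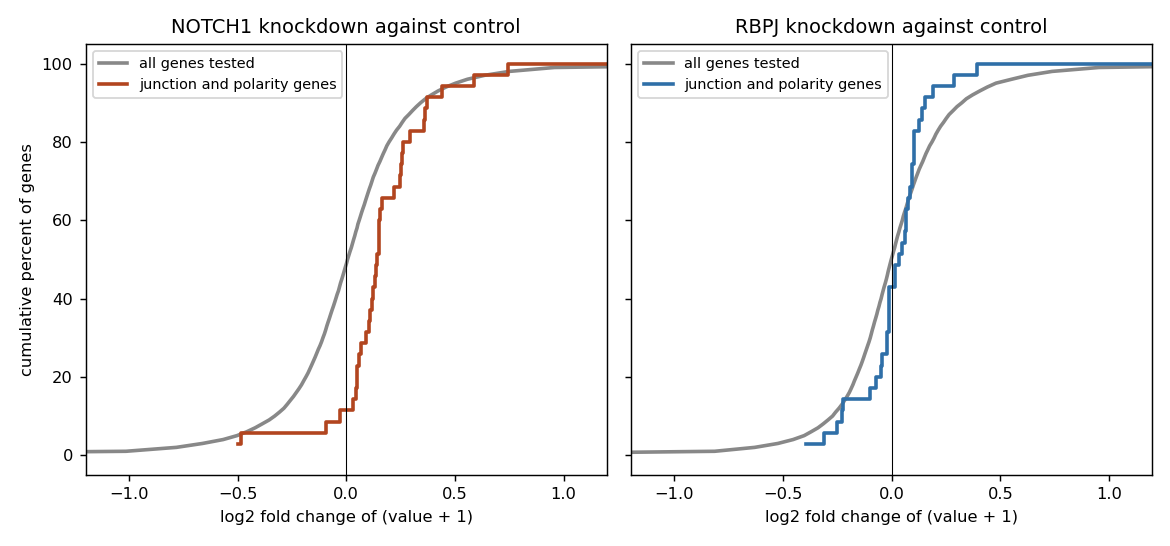
Cumulative percent of genes (y axis) by log2 fold change of value + 1 (x axis) for the NOTCH1 knockdown (left) and the RBPJ knockdown (right), each against the control. The coloured steps are the 35 junction and polarity genes and the grey curve is all 12070 genes tested: the steps lie right of the curve over most of the left panel (medians 0.14 and 0.0059) and cross it in the right panel (medians 0.034 and -0.0018).

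One library carried much of the shift in the NOTCH1 knockdown. Replicate 1 of that group held the highest value of all 6 libraries for 23 of the 35 genes and the lowest for 0, whereas 20.1% of all genes were highest there. After each gene was centred on its 6-library mean on the log2 scale, the members' median was 0.19 and 0.0011 in NOTCH1 knockdown libraries, 0.039 and -0.069 in RBPJ knockdown libraries, and -0.058 and -0.08 in control libraries. Replicate 2 of the NOTCH1 knockdown thus lay above both controls but below replicate 1 of the RBPJ knockdown. Without replicate 1 of the NOTCH1 knockdown the median log2 fold change against the control was 0.072 with 23 of 35 higher, and without its replicate 2 it was 0.22 with 33 higher. In the RBPJ knockdown the median was -0.021 without replicate 2 of the control and 0.088 without replicate 2 of the RBPJ knockdown.

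Some marker sums were also at an extreme in replicate 1 of the NOTCH1 knockdown, and others were not. The summed level of 11 oocyte transcripts was 213 and 452 in NOTCH1 knockdown libraries, 286 and 485 in RBPJ knockdown libraries, and 528 and 789.7 in control libraries, so it was lowest in replicate 1 of the NOTCH1 knockdown. ZP4 and NLRP5 alone were lowest elsewhere, in replicate 2 of the RBPJ knockdown, at 16.4 and 10.3. Transcripts of this kind, which oocytes store and embryos degrade, were lower by sign for 11 of 11 genes in the NOTCH1 knockdown. In the RBPJ knockdown 10 of 11 were lower. Over all genes 48.9% and 50.3% were lower by sign in the NOTCH1 and RBPJ knockdowns. None of the 11 was at 0 in every library. Summed lineage markers were 57111 and 51079 in NOTCH1 knockdown libraries, 53376 and 41455 in RBPJ knockdown libraries, and 44523 and 43643 in control libraries, highest in replicate 1 of the NOTCH1 knockdown and lowest in replicate 2 of the RBPJ knockdown. KRT8, POU5F1, GATA6 and KRT18 made up most of that sum, and they did not share one order. KRT8 was highest in replicate 1 of the RBPJ knockdown, at 16107. In replicate 2 of the RBPJ knockdown KRT8 and KRT18 were lowest, at 7578 and 5878. POU5F1 and GATA6, at 12183 and 10360, were above both controls in that library. NANOG was lowest in replicate 1 of the NOTCH1 knockdown, at 125. Blood and immune markers, most of whose sum was HBA and CSF1R, summed to 2035 and 2563 in NOTCH1 knockdown libraries, 2407 and 2940.0 in RBPJ knockdown libraries, and 2332 and 3323 in control libraries, lowest in replicate 1 of the NOTCH1 knockdown. HBA alone was lowest in replicate 1 of the control, at 976. Cumulus, granulosa and fibroblast markers summed to 707 and 822 in NOTCH1 knockdown libraries and 789 and 843 in RBPJ knockdown libraries. In control libraries they summed to 697 and 842, so the lowest was replicate 1 of the control. The part of these marker lists in the junction and polarity values was not tested.

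**Figure D2:**
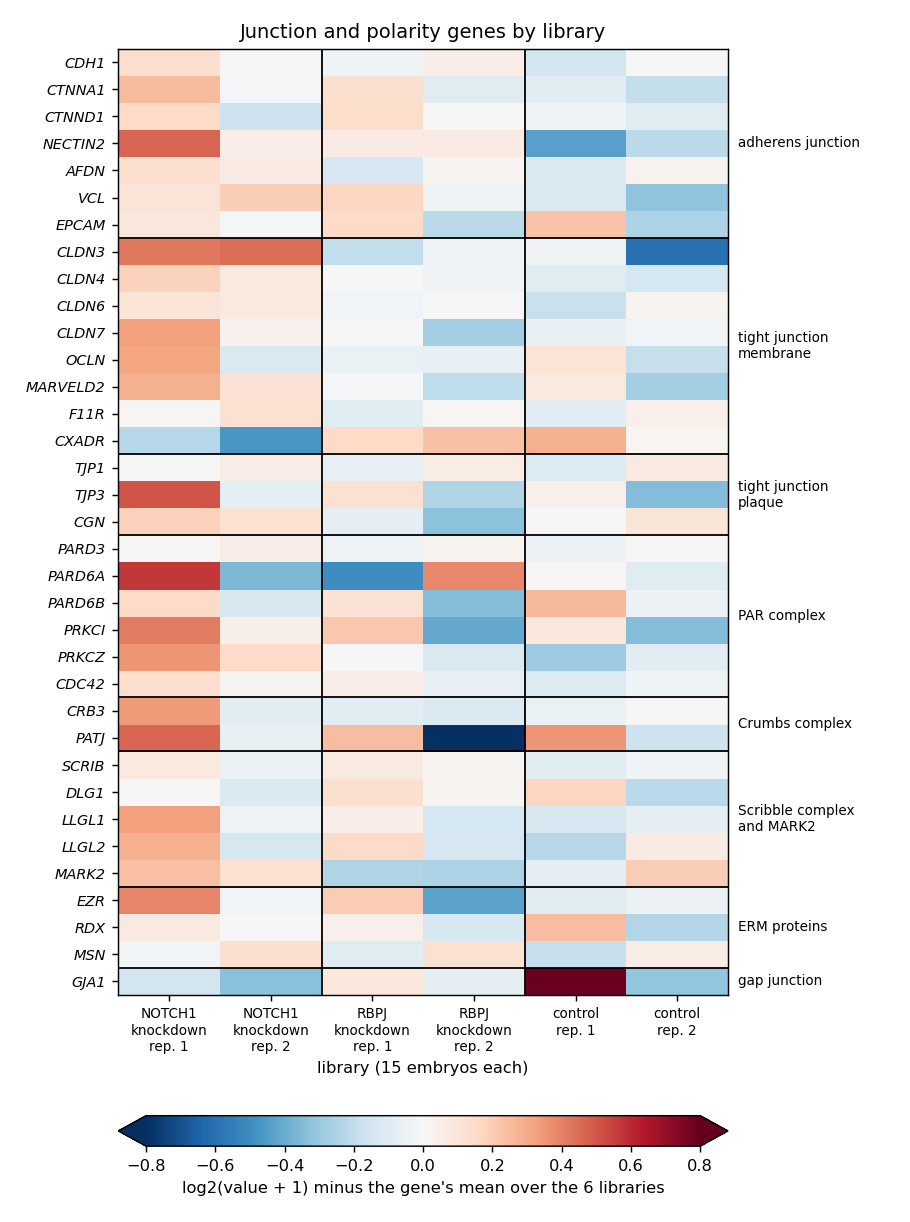
Each row is one of the 35 genes, grouped by role, and each column one library of 15 embryos. Colour gives log2(value + 1) minus the gene's mean over the 6 libraries. Red dominates the column of NOTCH1 knockdown replicate 1, where 31 of 35 genes were above their own mean, against 12 and 11 in the control libraries.

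No adherens junction gene stood below the control by sign in the NOTCH1 knockdown. All 7 had positive log2 fold changes in the NOTCH1 knockdown (median 0.14), as had 5 of 7 in the RBPJ knockdown (median 0.14). None passed the test in either knockdown. CDH1, E-cadherin itself, had 12325 and 11134 in NOTCH1 knockdown libraries, 10994 and 11680.1 in RBPJ knockdown libraries, and 10154 and 11248 in control libraries. Replicate 2 of the control lay within the range of every other group, so the groups overlapped. For CDH1 the log2 fold change was 0.13 in the NOTCH1 knockdown (95% interval -0.088 to 0.35) and 0.084 in the RBPJ knockdown (95% interval -0.14 to 0.30). CTNNA1, alpha-catenin, which links the cadherin complex to actin, had 6595 and 5488 in NOTCH1 knockdown libraries, 6051 and 5166 in RBPJ knockdown libraries, and 5200.4 and 4851 in control libraries. The NOTCH1 knockdown libraries were both above the controls, and replicate 2 of the RBPJ knockdown lay between the controls (log2 fold changes 0.26 and 0.15, limma adjusted p = 0.664 and 0.983 in the NOTCH1 and RBPJ knockdowns). CTNND1, p120-catenin, which stabilizes cadherin at the membrane, had 6539.8 and 5261 in NOTCH1 knockdown libraries, 6499.8 and 5903 in RBPJ knockdown libraries, and 5739.7 and 5511 in control libraries. There the RBPJ knockdown libraries were both above the controls, and the NOTCH1 knockdown libraries lay on either side of them.

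NECTIN2, an immunoglobulin-type adhesion molecule that starts cell contacts next to cadherins, gave the smallest p of all members in both comparisons with the control. It had 1930.3 and 1447 in NOTCH1 knockdown libraries, 1462 and 1457 in RBPJ knockdown libraries, and 1031 and 1201 in control libraries. The 4 knockdown libraries were all above both controls, and replicate 1 of the NOTCH1 knockdown stood apart as the highest. NECTIN2 averaged 1688 ± 342 in the NOTCH1 knockdown and 1116 ± 120.1 in the control (SD, n = 2 each), a ratio of 1.51. This difference did not pass (log2 fold change 0.59 ± 0.14 SE, limma adjusted p = 0.353). In the RBPJ knockdown NECTIN2 averaged 1459.7 ± 3.78 (SD, n = 2), and that difference from the control did not pass either (log2 fold change 0.39 ± 0.14 SE, limma adjusted p = 0.983).

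VCL encodes vinculin, which is recruited to alpha-catenin under tension. It had 2405 and 2567 in NOTCH1 knockdown libraries, 2512 and 2202 in RBPJ knockdown libraries, and 2073 and 1797 in control libraries. All 4 knockdown libraries were above both controls, and the knockdown groups overlapped each other. Neither the NOTCH1 knockdown (log2 fold change 0.36 ± 0.11 SE, limma adjusted p = 0.486) nor the RBPJ knockdown (log2 fold change 0.29 ± 0.11 SE, limma adjusted p = 0.983) passed. AFDN, afadin, which ties nectins to actin, had 5351 and 5131 in NOTCH1 knockdown libraries, 4473 and 4987 in RBPJ knockdown libraries, and 4528 and 5000.0 in control libraries. Its NOTCH1 knockdown libraries were both above the other 4, by a small margin over replicate 2 of the control. EPCAM, an epithelial adhesion molecule that binds claudins, had 1057 and 983 in NOTCH1 knockdown libraries, 1106 and 857 in RBPJ knockdown libraries, and 1164 and 837 in control libraries. Its highest and lowest values were both in the control, so no group stood apart.

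Among the 8 membrane proteins of tight junctions the 4 claudins of the set stood higher in the NOTCH1 knockdown, and CXADR stood lower. In the NOTCH1 knockdown 7 were higher by sign and 1, CXADR, was lower (median log2 fold change 0.19). In the RBPJ knockdown 4 were higher and 4 lower, with a median of 0.018. The 4 claudins, which form the paracellular seal, were all above the control in the NOTCH1 knockdown, and each had both NOTCH1 knockdown libraries above the other 4 libraries. This position was held by 7.78% of all genes and by 8 of the 35 members: the 4 claudins, MARVELD2, AFDN, CGN and PRKCZ.

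CLDN3 was a low transcript, with 86.8 and 88.4 in NOTCH1 knockdown libraries, 56.1 and 62.7 in RBPJ knockdown libraries, and 63.4 and 42.4 in control libraries. For CLDN3 the NOTCH1 knockdown libraries were close to each other, while the controls differed (log2 fold change 0.74 ± 0.29 SE, limma adjusted p = 0.615). CLDN4 had 3201 and 2973 in NOTCH1 knockdown libraries, 2803 and 2759.7 in RBPJ knockdown libraries, and 2635 and 2549 in control libraries. No 2 groups overlapped for CLDN4, and the order was NOTCH1 knockdown, RBPJ knockdown, control. The share of all genes in such an order was not counted, so no conclusion is drawn from it. Neither the NOTCH1 knockdown (log2 fold change 0.25 ± 0.099 SE, limma adjusted p = 0.623) nor the RBPJ knockdown (log2 fold change 0.10 ± 0.099 SE, limma adjusted p = 0.988) passed. CLDN6, a claudin of early embryonic epithelia, had 17442 and 17127 in NOTCH1 knockdown libraries, 16002 and 16267 in RBPJ knockdown libraries, and 14382 and 16516 in control libraries. Replicate 2 of the control lay above both RBPJ knockdown libraries for CLDN6 (log2 fold change 0.17 in the NOTCH1 knockdown, 95% interval -0.051 to 0.38). CLDN7 had 962 and 786 in NOTCH1 knockdown libraries, 764 and 635 in RBPJ knockdown libraries, and 737 and 754 in control libraries, and its NOTCH1 knockdown replicate 2 was only slightly above the next library. In the gene order of RefSeq, CLDN3 and CLDN4 are direct neighbours, as are OCLN and MARVELD2.

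CXADR encodes a junctional adhesion protein that also serves as the coxsackievirus and adenovirus receptor. It had 271 and 229 in NOTCH1 knockdown libraries, 355 and 372 in RBPJ knockdown libraries, and 386 and 320.3 in control libraries. Its NOTCH1 knockdown libraries were both below the other 4, and CXADR was the single member with that position, which 6.74% of all genes shared. CXADR averaged 249.8 ± 29.4 in the NOTCH1 knockdown and 353 ± 46.7 in the control (SD, n = 2 each), a ratio of 0.707. The difference did not pass (log2 fold change -0.50 ± 0.17 SE, limma adjusted p = 0.514). Against the same controls CXADR had a log2 fold change of 0.047 in the RBPJ knockdown (95% interval -0.31 to 0.41).

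OCLN and MARVELD2 encode occludin and tricellulin, related proteins at contacts of a pair of cells and at corners where more cells meet. OCLN had 1184 and 877 in NOTCH1 knockdown libraries, 916 and 908 in RBPJ knockdown libraries, and 1026 and 838 in control libraries. Replicate 1 exceeded replicate 2 in every group, and the groups overlapped. MARVELD2 had 381 and 340.2 in NOTCH1 knockdown libraries, 312 and 272 in RBPJ knockdown libraries, and 332 and 259.8 in control libraries, so that NOTCH1 knockdown replicate 2 exceeded control replicate 1 by a small amount. F11R, junctional adhesion molecule A, which binds the PAR complex, had 5962 and 6441 in NOTCH1 knockdown libraries, 5586 and 5962 in RBPJ knockdown libraries, and 5556 and 6107 in control libraries. Its 3 groups spanned a narrow range, and the NOTCH1 knockdown overlapped the control.

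**Figure D3:**
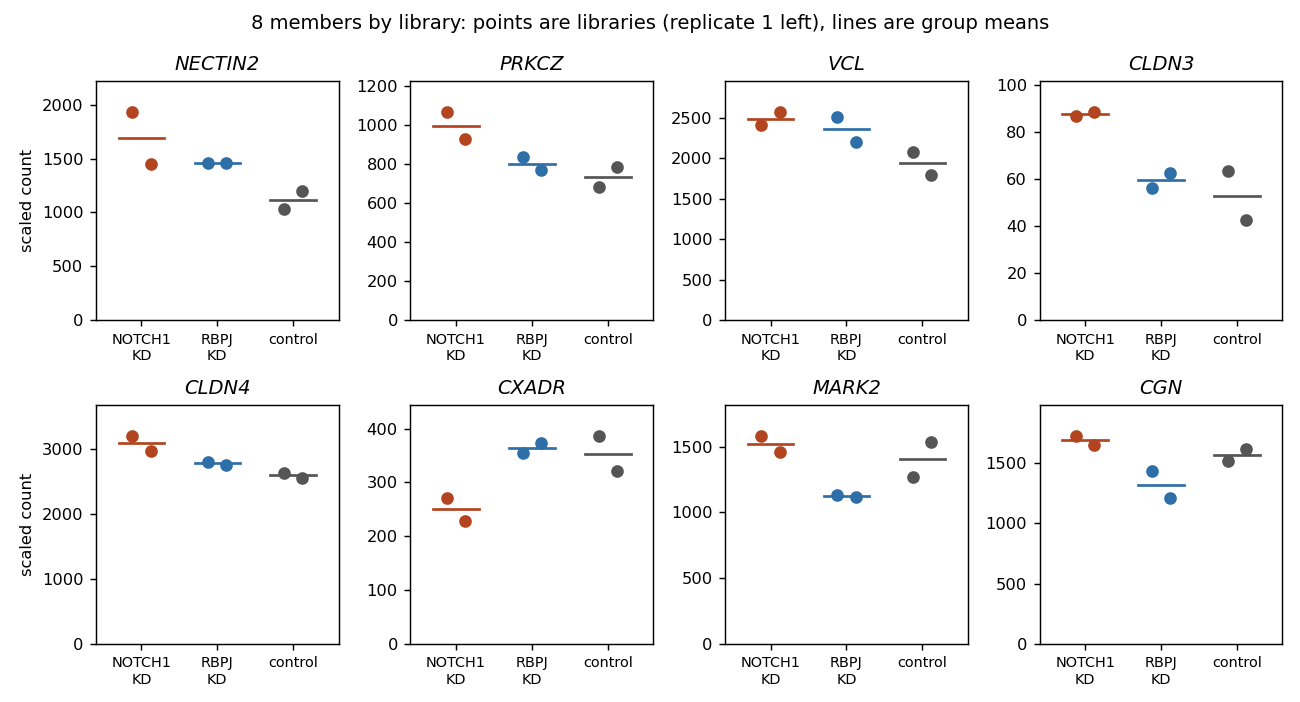
Scaled counts (y axis, from 0) of 8 genes in the NOTCH1 knockdown, RBPJ knockdown and control (x axis). Points are libraries of 15 embryos with replicate 1 on the left, and lines are means of 2. NECTIN2 and VCL show both knockdowns above the control, CLDN3 and PRKCZ the NOTCH1 knockdown alone, CXADR a lower NOTCH1 knockdown, and MARK2 and CGN a lower RBPJ knockdown.

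Plaque proteins connect tight junctions to the cytoskeleton, and their 3 genes differed in pattern. TJP1, which encodes the scaffold ZO-1, had 2024 and 2107 in NOTCH1 knockdown libraries, 1939 and 2121 in RBPJ knockdown libraries, and 1880.1 and 2136 in control libraries. The NOTCH1 knockdown range lay within the RBPJ knockdown range, and that within the control range, with 95% intervals of -0.20 to 0.28 in the NOTCH1 knockdown and -0.22 to 0.26 in the RBPJ knockdown on the log2 scale. TJP3, the scaffold ZO-3, had 1529 and 1028 in NOTCH1 knockdown libraries, 1174 and 914 in RBPJ knockdown libraries, and 1109 and 849 in control libraries. Replicate 1 was higher in each group, and NOTCH1 knockdown replicate 1 was the highest (log2 fold change 0.37, limma adjusted p = 0.73). CGN, cingulin, which links the plaque to actin and myosin, had 1727 and 1653 in NOTCH1 knockdown libraries, 1437 and 1208 in RBPJ knockdown libraries, and 1517 and 1619.6 in control libraries. The NOTCH1 knockdown libraries were both above the controls and the RBPJ knockdown libraries both below them. Neither the NOTCH1 knockdown (log2 fold change 0.11 ± 0.12 SE, limma adjusted p = 0.88) nor the RBPJ knockdown (log2 fold change -0.25 ± 0.12 SE, limma adjusted p = 0.983) passed.

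The PAR complex joins PARD3 and PARD6 adaptors, atypical protein kinase C and the small GTPase CDC42 at the apical domain. By sign, 5 of its 6 genes were higher in the NOTCH1 knockdown (median log2 fold change 0.15) and 4 in the RBPJ knockdown (median 0.024). The kinase genes stood furthest above the control in the NOTCH1 knockdown. PRKCZ had 1067 and 929 in NOTCH1 knockdown libraries, 835 and 768 in RBPJ knockdown libraries, and 684 and 788 in control libraries. For PRKCZ the NOTCH1 knockdown libraries were both above the other 4, and the RBPJ knockdown overlapped the control. PRKCZ averaged 998 ± 97.2 in the NOTCH1 knockdown and 736 ± 73.6 in the control (SD, n = 2 each), a ratio of 1.36, and the difference did not pass (log2 fold change 0.44 ± 0.13 SE, limma adjusted p = 0.466). PRKCI, the other atypical kinase, had 1472 and 1144 in NOTCH1 knockdown libraries, 1287 and 836 in RBPJ knockdown libraries, and 1178 and 872 in control libraries. Replicate 1 was well above replicate 2 in each group for PRKCI, and the groups overlapped.

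PARD3, the scaffold at apical junctions, had 1324 and 1367 in NOTCH1 knockdown libraries, 1280.3 and 1344 in RBPJ knockdown libraries, and 1274 and 1326 in control libraries. It was the steadiest member of the complex across libraries, with 95% intervals of -0.18 to 0.28 and -0.22 to 0.25 for the log2 fold changes in the NOTCH1 and RBPJ knockdowns. PARD6B had 318 and 261 in NOTCH1 knockdown libraries, 309 and 224 in RBPJ knockdown libraries, and 341 and 276 in control libraries. Replicate 1 was again the higher in every group, and the groups overlapped. PARD6A, the low transcript nearest the minimum, had 31.6 and 16.2 in NOTCH1 knockdown libraries, 14.6 and 27.7 in RBPJ knockdown libraries, and 21.1 and 19.6 in control libraries. Its 2 libraries lay on either side of both controls in each knockdown, and its log2 fold changes had a standard error of 0.48. CDC42 had 1903 and 1765 in NOTCH1 knockdown libraries, 1805 and 1655 in RBPJ knockdown libraries, and 1609.7 and 1696 in control libraries. The NOTCH1 knockdown libraries were both above the controls, the nearest pair being close.

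The Crumbs complex marks the apical membrane through CRB3, a small transmembrane protein, and the scaffolds PALS1 and PATJ. CRB3 had 147 and 109 in NOTCH1 knockdown libraries, 109.6 and 107 in RBPJ knockdown libraries, and 112 and 116 in control libraries. The RBPJ knockdown libraries were both below the controls by a small margin, and NOTCH1 knockdown replicate 1 was the highest. PATJ had 186 and 129 in NOTCH1 knockdown libraries, 159.8 and 74.8 in RBPJ knockdown libraries, and 172 and 120.1 in control libraries. Replicate 1 was above replicate 2 in all 3 groups, and RBPJ knockdown replicate 2 was the lowest of the 6, and the RBPJ knockdown did not pass (log2 fold change -0.39 ± 0.33 SE, limma adjusted p = 0.983). Without that library the log2 fold change was 0.15. MPP5, the row that RefSeq names as a synonym of PALS1, had 975 and 1081 in NOTCH1 knockdown libraries, 1024 and 919.6 in RBPJ knockdown libraries, and 1139 and 1073 in control libraries. Its RBPJ knockdown libraries were both below the controls, and the log2 fold changes were -0.11 in the NOTCH1 knockdown and -0.19 in the RBPJ knockdown (limma, adjusted p = 0.885 and 0.983).

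SCRIB, DLG1 and the LLGL genes encode basolateral scaffolds that oppose the PAR complex, and MARK2 is the basolateral kinase that phosphorylates PARD3. MARK2 had 1582 and 1458 in NOTCH1 knockdown libraries, 1134 and 1119.6 in RBPJ knockdown libraries, and 1271 and 1535 in control libraries. Both RBPJ knockdown libraries were below the other 4, as 5.72% of all genes were, and CGN was the other member with that position. No member had both RBPJ knockdown libraries above the other 4, a position of 4.84% of all genes. MARK2 averaged 1127 ± 9.95 in the RBPJ knockdown and 1403 ± 187 in the control (SD, n = 2 each), and the difference did not pass (log2 fold change -0.31 ± 0.12 SE, limma adjusted p = 0.983). In the NOTCH1 knockdown its log2 fold change was 0.12 (95% interval -0.14 to 0.38).

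LLGL1 had 3184 and 2465 in NOTCH1 knockdown libraries, 2630.0 and 2303 in RBPJ knockdown libraries, and 2321 and 2398 in control libraries. Replicate 1 of the NOTCH1 knockdown was far above the other 5 libraries, and replicate 2 exceeded the controls by little. LLGL2 had 2645 and 1967 in NOTCH1 knockdown libraries, 2419 and 1981 in RBPJ knockdown libraries, and 1857 and 2273 in control libraries, with the groups overlapping. SCRIB had 1877 and 1719 in NOTCH1 knockdown libraries, 1873 and 1806 in RBPJ knockdown libraries, and 1678 and 1746 in control libraries. The RBPJ knockdown libraries were both above the controls, and the NOTCH1 knockdown libraries straddled replicate 2 of the control. DLG1 had 259 and 238 in NOTCH1 knockdown libraries, 282 and 262 in RBPJ knockdown libraries, and 289.8 and 221 in control libraries, and its controls were both the highest and the lowest of the 6 libraries.

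Ezrin, radixin and moesin, encoded by EZR, RDX and MSN, link apical membrane proteins to actin. EZR, a marker of the apical domain in outer blastomeres, had 20070.0 and 15088 in NOTCH1 knockdown libraries, 17575 and 11363 in RBPJ knockdown libraries, and 14338 and 14776 in control libraries. The RBPJ knockdown libraries lay on either side of the controls and differed from each other more than any 2 libraries of another group. The NOTCH1 knockdown libraries were both above the controls, replicate 2 by a small margin (log2 fold changes 0.26 and -0.043 in the NOTCH1 and RBPJ knockdowns, 95% intervals -0.13 to 0.64 and -0.43 to 0.34). RDX had 1280.4 and 1219 in NOTCH1 knockdown libraries, 1252 and 1116 in RBPJ knockdown libraries, and 1447 and 1035 in control libraries. Its extremes were both in the control. MSN had 10319 and 11437 in NOTCH1 knockdown libraries, 9779 and 11373 in RBPJ knockdown libraries, and 9221 and 10892 in control libraries. Replicate 2 was higher in every group, the reverse of RDX, and the groups overlapped.

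GJA1 encodes connexin 43, a gap junction channel through which blastomeres exchange small molecules after compaction. It was low, with 36.8 and 32.3 in NOTCH1 knockdown libraries, 43.8 and 39.0 in RBPJ knockdown libraries, and 71.8 and 32.7 in control libraries. Replicate 1 of the control stood alone above the other 5 libraries, and replicate 2 of the control lay among the knockdown libraries. Neither the NOTCH1 knockdown (log2 fold change -0.48 ± 0.39 SE, limma adjusted p = 0.84) nor the RBPJ knockdown (log2 fold change -0.23 ± 0.39 SE, limma adjusted p = 0.995) passed.

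**Figure D4:**
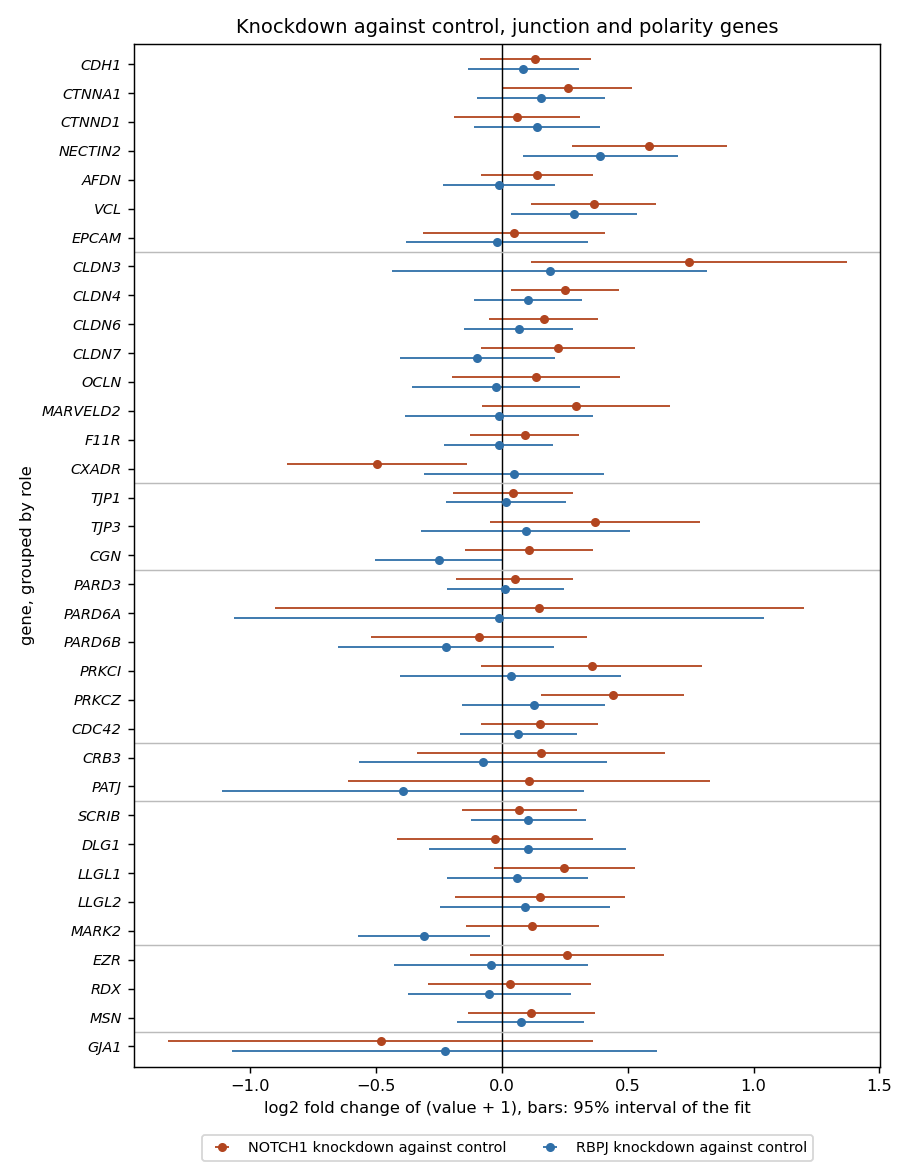
Log2 fold change of value + 1 against the control (x axis) for each of the 35 genes (y axis, grouped by role), in the NOTCH1 knockdown and the RBPJ knockdown, with bars for the 95% interval of the limma fit, not adjusted for the number of genes. In the NOTCH1 knockdown 31 points lie right of 0, in the RBPJ knockdown 20. CLDN3 reaches 0.74 and CXADR -0.50 in the NOTCH1 knockdown.

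The knockdowns were also compared directly, without the shared control. Of the 35 genes, 30 were, by sign, higher in the NOTCH1 knockdown than in the RBPJ knockdown and 5 lower, and the median log2 fold change was 0.13. Over all genes 52.7% were higher and 47.3% lower, with a median of 0.011. Both NOTCH1 knockdown libraries lay above both RBPJ knockdown libraries for 10 members and below them for 3, against 17.5% and 15.5% of all genes. At an unadjusted p below 0.05 limma gave 5 members, where 3.64% of all genes had one. Of these, 4 were higher and 1 lower, where 1.81% of all genes were higher and 1.83% lower. The smallest p values were those of MARK2 (log2 fold change 0.43), CXADR (-0.54), CGN (0.36) and PRKCZ (0.31), and all 35 had a limma adjusted p of at least 0.999. The direct median was 0.044 without replicate 1 of the NOTCH1 knockdown and 0.24 without its replicate 2.

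Replicates of one group differed in a common direction for many members. Replicate 1 exceeded replicate 2 for 29 of 35 members in the NOTCH1 knockdown, 25 in the RBPJ knockdown and 17 in the control, where all genes gave 51.9%, 49.3% and 50.0%. It did so in all 3 groups for 13 members, which is 37.1% of them, against 19.5% of all genes. These 13 were CTNNA1, CTNND1, EPCAM, CLDN4, OCLN, MARVELD2, TJP3, PARD6B, PRKCI, PATJ, DLG1, RDX and GJA1. In 4 members, F11R, TJP1, PARD3 and MSN, replicate 2 was the higher in all 3 groups, as in 18.2% of all genes. The labels give the replicate number no further meaning.

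A wider list of 78 other symbols for junction and polarity genes, of which 60 were tested, was described for comparison. None passed limma in either knockdown. In the NOTCH1 knockdown 38 were higher and 22 lower by sign (median log2 fold change 0.056), and in the RBPJ knockdown 36 were higher and 24 lower (median 0.036). The wider list thus lay nearer to all genes than the 35 members did in the NOTCH1 knockdown, a difference that was not tested. Of the 60, 13 had both NOTCH1 knockdown libraries above both controls and 4 had both below, against 18.6% and 17.2% of all genes. CTNNB1, beta-catenin, which binds E-cadherin directly, had 2750.1 and 2588 in NOTCH1 knockdown libraries, against 2664 and 2453 in control libraries, with the groups apart by little and overlapping. NECTIN1, a relative of NECTIN2, had 1629 and 1917 in NOTCH1 knockdown libraries, against 1233 and 1613 in control libraries, and ZYX, zyxin of actin-anchored adhesions, had 7742 and 7604 in NOTCH1 knockdown libraries, against 5235 and 7071 in control libraries. For each of NECTIN1 and ZYX the NOTCH1 knockdown libraries were above both controls. NECTIN3, another nectin, went the other way at a low level, with 33.6 and 52.9 in NOTCH1 knockdown libraries, against 62.2 and 61.9 in control libraries, both below the controls. CDH3, P-cadherin, had 231 and 164 in NOTCH1 knockdown libraries, against 225 and 251 in control libraries, and its groups overlapped. Claudins of the wider list were mixed in the NOTCH1 knockdown. CLDN10 lay above both controls (log2 fold change 0.43). CLDN12 (0.13) and the low transcripts CLDN5 (-0.26) and CLDN15 (-0.077) overlapped the control. Log2 fold changes of the wider list in the NOTCH1 knockdown ran from -0.61 for GJC1 to 0.83 for DLG4. SLC9A3R1, the ezrin-binding scaffold NHERF1, had 7748 and 5949 in NOTCH1 knockdown libraries, 7358 and 6048 in RBPJ knockdown libraries, and 5525 and 5919.9 in control libraries, a pattern in which replicate 1 was the higher in both knockdowns, as for EZR.

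Of 22 transcription factors and splicing regulators known for epithelial or mesenchymal programmes, 20 were tested and none passed limma. In the NOTCH1 knockdown 14 were higher and 6 lower by sign (median log2 fold change 0.093), and in the RBPJ knockdown 6 were higher and 14 lower (median -0.06). Both NOTCH1 knockdown libraries lay above both controls for 7 of the 20 and below both for 4, against 18.6% and 17.2% of all genes. Both RBPJ knockdown libraries lay above both controls for 1 and below both for 2, against 15.3% and 16.8% of all genes. Log2 fold changes in the NOTCH1 knockdown ran from -1.62 for TFAP2A to 0.78 for GATA3. TFAP2A, a factor of trophectoderm and other epithelia, was near the minimum mean, with 6.37 and 8.63 in NOTCH1 knockdown libraries, 8.90 and 27.7 in RBPJ knockdown libraries, and 31.1 and 20.01 in control libraries. Its NOTCH1 knockdown libraries were both below the other 4, a position of 6.74% of all genes, and replicate 2 was below by a small margin. The difference from the control did not pass (log2 fold change -1.62 ± 0.59 SE, limma adjusted p = 0.566). CDX2, a trophectoderm factor, had 976 and 832 in NOTCH1 knockdown libraries, 682 and 624 in RBPJ knockdown libraries, and 654 and 744 in control libraries, with the NOTCH1 knockdown above the other 4 libraries. GATA3, which also specifies trophectoderm, had 1018 and 856 in NOTCH1 knockdown libraries, 737 and 391 in RBPJ knockdown libraries, and 577 and 515 in control libraries, with the NOTCH1 knockdown again above the other 4. This position was held by 7.78% of all genes. GRHL2, an activator of CDH1 and claudin genes in other epithelia, had 72.5 and 70.0 in NOTCH1 knockdown libraries, 52.3 and 24.6 in RBPJ knockdown libraries, and 52.8 and 46.9 in control libraries, in the same arrangement at a low level. KLF5, another factor of early embryonic epithelia, had 5569 and 4843 in NOTCH1 knockdown libraries, 5443 and 4659 in RBPJ knockdown libraries, and 4611 and 4325 in control libraries, with all 4 knockdown libraries above both controls. That held for 7.98% of all genes. The 3 mesenchymal regulators that were tested were lower by sign in both knockdowns. SNAI1, a repressor of CDH1 in many tissues, had 849 and 806 in NOTCH1 knockdown libraries, against 840.4 and 1304 in control libraries, and replicate 2 of the control set most of that difference. ZEB1 had 70.5 and 102 in NOTCH1 knockdown libraries, against 108 and 126 in control libraries, and TWIST1 had 97.0 and 124 in NOTCH1 knockdown libraries, against 137 and 149 in control libraries. The NOTCH1 knockdown libraries were both below the controls for ZEB1 and TWIST1 (limma, adjusted p = 0.759 and 0.761).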

How the data were processed

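The authors deposited one table of normalized abundance per gene and library, a signal that, as judged from the values, is a read count divided by a scaling factor per library. The submitters' processing notes name Salmon 0.14.1 and DESeq2, and ARS-UCD1.2 as the genome build, without saying what each did. Of the low values 86.1% to 87.5% lay within 0.1 of a whole multiple of one step, too few to recover whole reads, so no count test was run. The 2551 of 17922 rows without a name, 6.20% to 7.22% of a total, were left out. For 57 repeated symbols the row with the higher mean was kept. Near-identical copies, overlapping genes and antisense genes can share reads, since the library kit is not stated to keep strand.

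Values were analysed as log2(value + 1), which understates the fold change of low genes. Genes with a mean of at least 10 were fitted with limma 3.58.1 in R 4.3.3, as group means over all 6 libraries. The fit had 3 residual degrees of freedom, a trend on level and Benjamini-Hochberg adjustment. It was also run on simulated data. The changes planted there were larger than the members' log2 fold changes, so that run does not give the power to detect changes of the members' size. Members, lists and the rule for named genes (the targeted genes, the members with the smallest p, those whose groups do not overlap and the highest of each role) were chosen with earlier results of these data known, so no p over a list is given. Alternatives were other pseudocounts, filters, scalings, variance models, a replicate block, only the groups compared and the omission of each library. Symbols were set beside the RefSeq gene table of another build, so no coordinates and no sequences are printed. Spike-in RNA was not analysed here. Figures were drawn with matplotlib 3.10.9.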

Additional observations from a re-analysis of the deposited data

Results flagged for a closer look

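CGN, cingulin, was the single member whose libraries lay on opposite sides of the control in the 2 knockdowns. It had 1727 and 1653 in NOTCH1 knockdown libraries, 1437 and 1208 in RBPJ knockdown libraries, and 1517 and 1619.6 in control libraries. The NOTCH1 knockdown libraries were both above the controls and the RBPJ knockdown libraries both below. The direct log2 fold change, NOTCH1 knockdown over RBPJ knockdown, was 0.36 with a standard error of 0.12, and this difference did not pass (limma, adjusted p = 0.999). It ran from 0.23 to 0.48 over omitted libraries. Groups of 2 libraries are too small for a test of single outlying samples. The share of all genes on opposite sides of the control in the 2 knockdowns was not counted, so no conclusion is drawn from this position. Taken alone, both NOTCH1 knockdown libraries lay above both controls for 18.6% of all genes. Both RBPJ knockdown libraries lay below both controls for 16.8%.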

How the results depend on the processing

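The count of members called stayed at 0 in all 3 comparisons under all alternatives but one. With the replicate number as a block, limma called 1 member, NECTIN2 in the NOTCH1 knockdown (adjusted p = 0.0189). Over the other settings that kept all libraries and over omitted libraries its adjusted p ran from 0.168 to 0.999. Over all genes the block gave 138 calls in the NOTCH1 knockdown, 12 in the RBPJ knockdown and 15 between them, against 0, 1 and 1 without it. Deviations of same-numbered libraries from their group means correlated at 0.17 to 0.21 across genes. With 2 numbers and no meaning given for them in the labels, pairing is a hint from the data, not the design. Variance moderation without the trend gave 0 calls in the RBPJ knockdown and 0 between the knockdowns, where RBPJ itself no longer passed (adjusted p = 0.326 and 0.318). The cause was not tested.

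Over omitted libraries the calls ran from 0 to 1 in the NOTCH1 knockdown, 1 to 3 in the RBPJ knockdown and 0 to 3 between them. The members' median ran from 0.072 to 0.22 in the NOTCH1 knockdown, -0.021 to 0.088 in the RBPJ knockdown and 0.044 to 0.24 between them, and the number higher by sign from 23 to 33, 17 to 24 and 22 to 30. An arm left with 1 library was assumed to vary like the others. Quantile normalization gave medians of 0.11, 0.021 and 0.10. Under a minimum mean of 100 the 32 members left had medians of 0.14 and 0.041 against the control, and all genes 0.013 and -0.0075. Counting MPP5 as PALS1, chosen after seeing the data, gave 0.14 and 0.026. Single values changed sign for CDH1 between the knockdowns under quantile normalization (-0.039) and over omitted libraries (-0.025 to 0.12), and in the RBPJ knockdown over omitted libraries for NOTCH1 (-0.97 to 0.34), PATJ (-0.93 to 0.15) and PARD6B (-0.45 to 0.0095). RBPJ between the knockdowns ran from 1.65 to 2.00 and lost its call without either NOTCH1 knockdown library.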
